A study of Homo sapiens with 56 samples.

Results

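The effect of the agent labelled CLF on its own was read in 4 human mantle cell lymphoma cultures by comparing every CLF library with untreated cells of the same line. The series held 56 poly-A RNA-seq libraries. Of these, 6 were labelled CLF and 5 were labelled CON, taken here as untreated because the study's design text names untreated samples, and all 11 were used. MINO-P and MINO-VR each gave 1 CON and 1 CLF library, JEKO-1 gave 1 CON and 2 CLF, and Z138 gave 2 CON and 2 CLF. The labels do not spell out CLF, give no dose or time, and leave P and VR unexplained. They also do not say whether libraries of a line came from separate cultures, so the p-values measure the spread between these libraries, which may be technical. Mantle cell lymphoma is a B-cell lymphoma in which cyclin D1 is usually overproduced, and the series addresses drug resistance in it.

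Several gene programs met below are standard readouts of how cells cope with a drug. Secreted and membrane proteins are folded in the endoplasmic reticulum (ER), and when unfolded proteins build up there, the sensors ATF6, IRE1 and PERK raise the output of chaperone genes, which is called the unfolded protein response. Many of these genes carry the ER stress element in the promoter. Sterol synthesis genes respond to the membrane-bound factor SREBP2 when sterol in the ER runs low, whereas lysosomal genes are driven by TFEB and TFE3 through short sites built around TCACGTGA.

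The libraries did not sort by treatment alone. The second JEKO-1 CLF library (JEKO-1 CLF replicate 2, whose library number is far from those of the other JEKO-1 libraries) differed from JEKO-1 CON by a median of 0.34 on the log2(CPM + 1) scale (CPM, counts scaled to a common library total; absolute value, over genes), while the first CLF library differed from it by 0.10. In Z138, CON replicate 1 and CON replicate 2 differed from each other by 0.34, more than CON replicate 1 from CLF replicate 1 (0.19) or CON replicate 2 from CLF replicate 2 (0.27). In Z138 the libraries whose names end alike (CON and CLF replicate 2 carry a final letter) therefore resembled each other more than libraries of the same treatment. No JEKO-1 CON library has a number near that of JEKO-1 CLF replicate 2, so treatment and library number cannot be told apart in it. The counts of several gene lists are also given without this library, while common differences of single genes are given with it. In MINO-P, the CON and CLF libraries also differ in the code HMHTKDSXX or HV3NWDSXX in their names, whose meaning the labels do not give, and treatment and code cannot be told apart there. The CON and CLF library names of MINO-P and MINO-VR all begin with HK, and those of JEKO-1 and Z138 with MCL. Contrasts of the MINO lines with JEKO-1 and Z138 therefore cannot be told apart from this name series. Depth recovered from the values was 14.51 to 21.35 M reads per library, and 3 reads were worth 0.141 to 0.207 CPM. Mitochondrial transcripts took 1.91% to 4.38% of the total, the highest in JEKO-1 CLF replicate 2. The mean difference over the 4 lines was 0.53 percentage points higher in CLF (exact two-sided permutation test within lines, p = 0.361, where the smallest possible p is 0.0139). The 6 B-cell markers, among them MS4A1, CD79A and PAX5, each reached 1 CPM in at least 1 library. They summed to 849 to 2319 CPM in CON and 1190 to 1948 CPM in CLF. CD22 was at 0.207 CPM in Z138 CLF replicate 2, the worth of 3 reads. The lymphoma marker CD5 was at 0 CPM in all 4 Z138 libraries. T-cell markers summed to at most 43.6 CPM, NK-cell markers to at most 2.87 CPM and myeloid markers to at most 1.99 CPM. Of the measured fibroblast markers, COL1A1 reached 71.9 CPM in Z138 CON replicate 1, where COL1A2 and DCN were at 0 CPM. COL1A2 and DCN reached at most 1.98 and 0.562 CPM in any of the 11 libraries.

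With the 4 lines as a block, 0 of 14358 genes passed limma's test of CLF against CON at an adjusted p under 0.05 (0% of genes), and the smallest adjusted p was 0.999. At an unadjusted p under 0.05 there were 311 genes higher (2.17%) and 263 lower (1.83%), 574 in all. That is a smaller share of the genes tested than the 0.05 that no difference would give. The median log2 difference over all genes was -0.02 and the median standard error 0.17, on 6 residual degrees of freedom. All that follows is therefore a description of levels, and every gene named from here on had an adjusted p of 0.999 in this test unless another value is given. The test of whether the CLF effect differed between lines called 0 genes as well (52 at an unadjusted p under 0.05, limma). Contrasts for each line in a model of 8 line and treatment groups gave 0 calls, with 103 genes at an unadjusted p under 0.05 in MINO-P, 173 in MINO-VR, 45 in JEKO-1 and 250 in Z138. In these tests the spread came from the groups with 2 libraries (JEKO-1 CLF and Z138), and the single libraries of MINO-P and MINO-VR are assumed to vary like them. Across 10930 genes with a mean of at least 5 CPM, the differences of MINO-P and MINO-VR correlated at a Pearson r of 0.48, JEKO-1 correlated with the others at 0.18 to 0.23, and Z138 correlated with MINO-P at 0.05 and MINO-VR at 0.09. These are correlations across genes, which are not independent replicates. MINO-P and MINO-VR also share the name series HK.

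The genes that leaned one way in all 4 lines were counted by 3 readings. The within-line difference had the same sign in every line for 1245 genes that were higher (8.67% of those tested) and 1549 that were lower (10.8%). Every CLF library lay beyond every CON library of its own line for 248 genes on the higher side (1.73%) and 172 on the lower side (1.2%). Were libraries of a line exchangeable, a gene would meet this on a given side in 1 of 72 label arrangements (a share of 0.0139). Both counts lie near that share, so lying apart in all lines does not by itself mark a gene as changed. The within-line difference was at least 0.5 in all 4 lines for 22 genes on the higher side (0.153%) and 15 on the lower side (0.104%). The shares of all genes in the first pair of readings are the background for the list counts below. Leaving out 1 JEKO-1 CLF or Z138 library, which leaves fewer libraries to lie apart, gave 347 to 506 genes on the higher side and 262 to 723 on the lower side in the second reading. Without JEKO-1 CLF replicate 2 the last reading held 3 higher genes and 5 lower genes. Of the 37 genes in the full reading, UNC5B and BEST1 on the higher side and FAS and LY86-AS1 on the lower side stayed past 0.5 without that library. LY86-AS1 was weakly expressed, with a mean of 0.718 CPM. Its 0.192 CPM in MINO-P CLF, 0.105 in MINO-VR CLF and 0.122 in Z138 CLF replicate 1 were worth 3 reads or fewer. Its Z138 libraries overlapped, with 1.03 CPM in CLF replicate 2 and 1.02 in CON replicate 2.

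**Figure D1:**
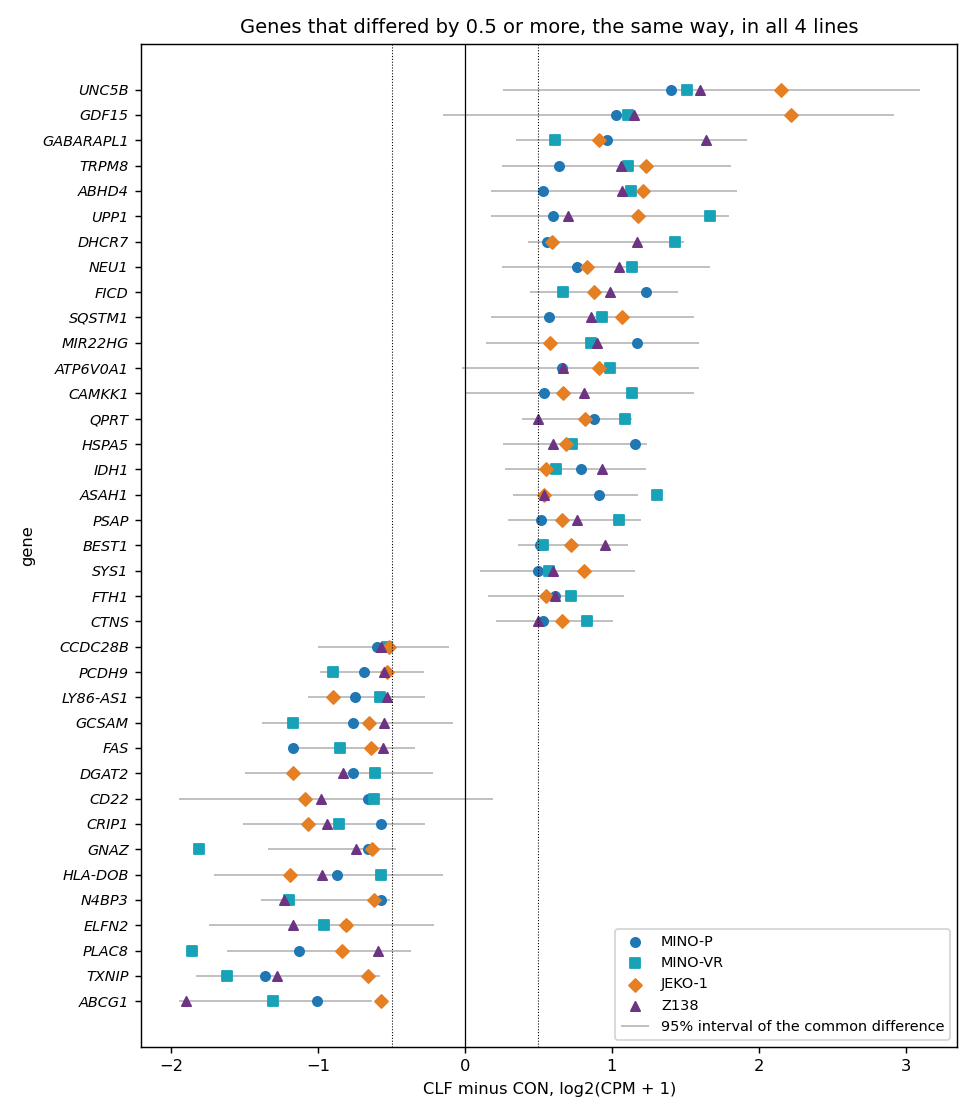
Within-line difference of CLF from CON (log2 of CPM + 1) for the 22 higher and 15 lower genes that reached 0.5 in all 4 lines, with 1 symbol per line, dotted lines at 0.5 each way and grey bars for limma's 95% interval of the common difference. Genes are ordered by the common difference, which was highest for UNC5B and GDF15 (1.68 and 1.38) and lowest for ABCG1 and TXNIP (-1.29 and -1.20). The intervals of GDF15 (-0.15 to 2.92), ATP6V0A1 (-0.02 to 1.59) and CD22 (-1.95 to 0.19) include 0.

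Genes of the ER unfolded protein response were higher in CLF by their median in every line. Of 18 measured genes, 14 had a positive difference in all 4 lines, 0 a negative one, 8 had CLF and CON libraries that did not overlap in any line, and the list's median difference was 0.47, against -0.02 over all genes tested. For comparison, 8.67% of all genes were positive in every line and 1.73% had non-overlapping libraries on the higher side. By line the median was 0.58 in MINO-P, 0.33 in MINO-VR, 0.41 in JEKO-1 and 0.52 in Z138. The JEKO-1 libraries differed, with a list median of 0.04 in CLF replicate 1 and 0.70 in CLF replicate 2. Of the 18 genes, 11 had an unadjusted p under 0.05, all higher, and 0 passed the adjusted test. The remaining genes without a common sign were SDF2L1, SEL1L, XBP1 and SYVN1.

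The promoters of 5 ER genes with non-overlapping libraries are shown because they hold the classical ER stress element, CCAAT and CCACG separated by 9 bases. Capitals mark both ends of the element. The stretches are RefSeq promoter sequence on GRCh38.p14, read 5′ to 3′ on the strand of the gene, and all lie upstream of the transcript start that RefSeq's table uses. The deposited gene spans include other starts, and by these the HSP90B1 and PDIA6 stretches lie inside the gene and the HSPA5 stretch reaches into its first bases. In CALR the element stands on the opposite strand, so its ends read CGTGG and ATTGG.
HSPA5 (chr9:125241381-125241419, minus strand): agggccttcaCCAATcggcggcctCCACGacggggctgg
HSP90B1 (chr12:103930206-103930244, plus strand): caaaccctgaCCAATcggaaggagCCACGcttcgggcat
PDIA6 (chr2:10812843-10812881, minus strand): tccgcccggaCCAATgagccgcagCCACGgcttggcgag
CALR (chr19:12938374-12938412, plus strand): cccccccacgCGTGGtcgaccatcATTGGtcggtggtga
FICD (chr12:108515113-108515151, plus strand): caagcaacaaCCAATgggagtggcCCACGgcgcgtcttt
On either strand of the 300 bases around the start (250 before, 50 after), the element was found in 25 of 27305 genes in the promoter table (0.0916%), and in 7 of 18 genes of the unfolded protein response list (CALR, CANX, CRELD2, HSP90B1, HSPA5, PDIA6 and XBP1). It was found in 0 of 15 sterol synthesis genes and 0 of 16 mitosis genes that the table covers. A match describes the sequence and does not show that a factor was bound.

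HSPA5 (chr9:125234853-125241383, hg38) encodes BiP, the main ER chaperone of the HSP70 family. Its level was 215 CPM in MINO-P CON and 480 in CLF, 1240 and 2060 in MINO-VR, 976 in JEKO-1 CON against 1040 and 2400 in the 2 CLF libraries, and 1060 and 758 in Z138 CON against 1310 and 1410 in CLF. Every CLF library lay above the CON libraries of its line, although the first JEKO-1 CLF library did so by little. The common log2 difference was 0.75 ± 0.22 (SE; unadjusted p = 0.00679). PDIA4, a disulfide isomerase of the same compartment, stood at 234 CPM in MINO-P CON and 475 in CLF, 380 and 548 in MINO-VR, 286 against 306 and 491 in JEKO-1, and 527 and 397 against 655 and 831 in Z138. Its difference was 0.66 ± 0.16 (unadjusted p = 0.00238). The groups were again apart in each line, and the same was seen for DNAJB9 and DNAJC3, ER co-chaperones of BiP, with differences of 0.71 ± 0.16 and 0.64 ± 0.17. HYOU1, CALR, HSP90B1 and PDIA6, further ER chaperones and folding enzymes, gave 0.51, 0.50, 0.47 and 0.42.

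The wider machinery that moves proteins into the ER, folds and glycosylates them was read with a list of 32 genes chosen after the values were seen. Of these, 26 had a positive difference in all 4 lines and 0 a negative one, 17 had non-overlapping libraries, and the median was 0.47. Among all genes tested, 8.67% were positive and 10.8% negative in every line. Libraries did not overlap on the higher side for 1.73% of them, and their median was -0.02. FICD, the enzyme that AMPylates BiP, was at 4.56 CPM in MINO-P CON and 12.1 in CLF, 11.7 and 19.1 in MINO-VR, 4.57 against 6.20 and 13.5 in JEKO-1, and 14 and 7.29 against 21.2 and 21.1 in Z138. All 6 CLF libraries were above CON of their line, with a difference of 0.95 ± 0.23 (unadjusted p = 0.00192). By the deposited coordinates FICD overlaps the more abundant SART3, so its reads are uncertain. SEC61A1, the core of the channel through which nascent chains enter the ER, differed by 0.59 ± 0.19. The oligosaccharyltransferase subunits STT3A, RPN1 and DAD1 differed by 0.47, 0.44 and 0.31, and the signal-peptide peptidase HM13 by 0.54. Without JEKO-1 CLF replicate 2, 27 of 32 genes had a positive sign in all 4 lines and the median was 0.41. For the 18 genes of the unfolded protein response these values were 10 and 0.40.

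**Figure D2:**
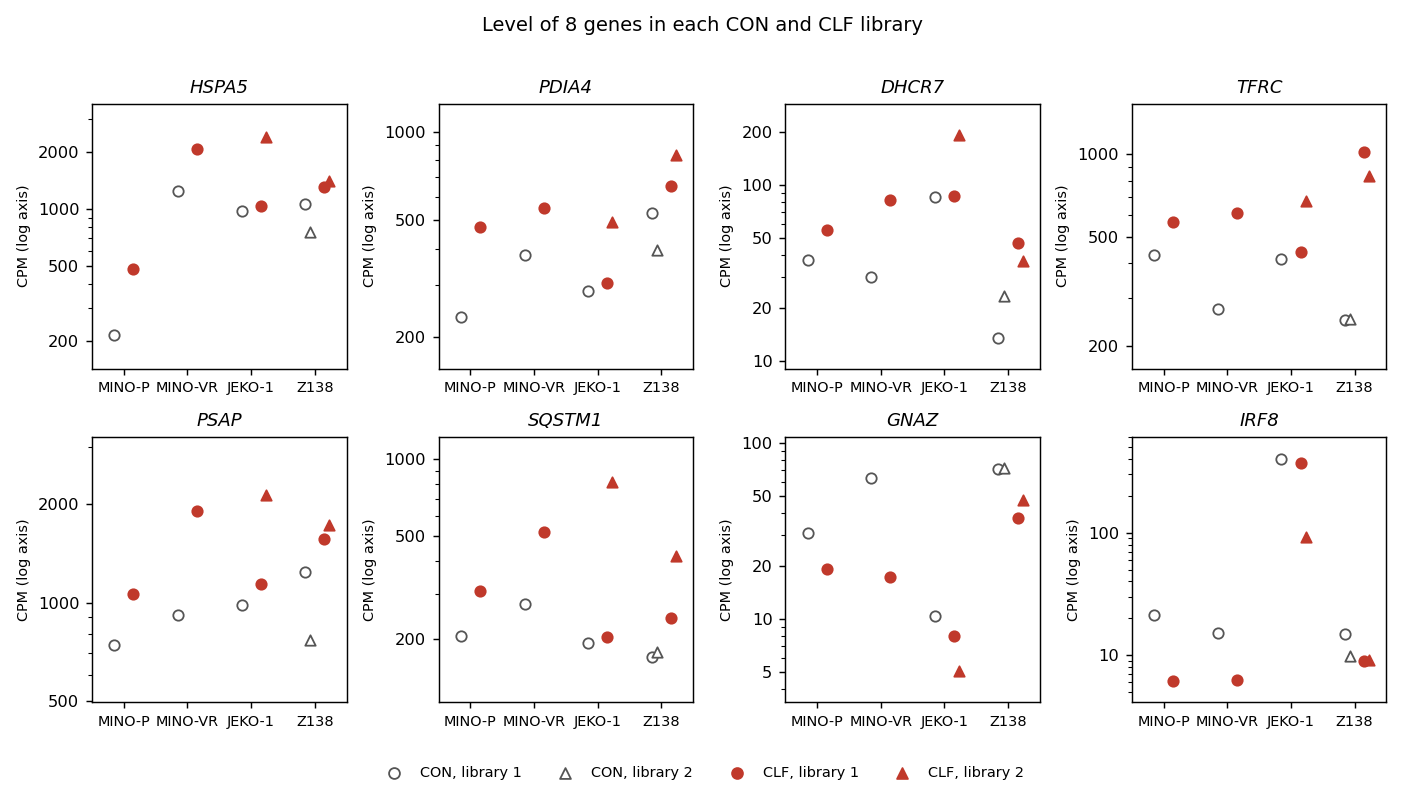
CPM on a log axis in each of the 11 libraries for 8 genes, with open symbols for CON, filled symbols for CLF, circles for the first and triangles for the second library of a group. HSPA5, PDIA4, DHCR7, TFRC, PSAP and SQSTM1 were higher and GNAZ and IRF8 lower in each CLF library than in CON of its line, and in JEKO-1 the first CLF library lies close to CON.

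Sterol synthesis genes had the highest list median, 0.57 over 21 measured genes, against -0.02 over all genes. Of the 21, 18 had a positive difference in all 4 lines, 0 a negative one, 15 had an unadjusted p under 0.05 and 4 had non-overlapping libraries (DHCR7, IDI1, SC5D and NSDHL). On the higher side the shares of all genes were 8.67% for sign, 2.17% for unadjusted p and 1.73% for non-overlapping libraries. The median by line was 0.45 in MINO-P, 0.67 in MINO-VR, 0.22 in JEKO-1 and 0.91 in Z138. JEKO-1 rested on 1 library: the list median was -0.09 in its first CLF library and 0.56 in the second. Without the second library, 7 of the 21 genes had a positive sign in all 4 lines. In Z138 both CLF libraries were high, with list medians of 0.66 and 0.97.

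DHCR7 (chr11:71428193-71452869), which makes cholesterol from its last precursor, was at 37.5 CPM in MINO-P CON and 55.7 in CLF, 30.0 and 82.4 in MINO-VR, 85.6 against 86.4 and 193 in JEKO-1, and 13.6 and 23.3 against 46.7 and 36.9 in Z138. The libraries of the 2 treatments did not overlap in any line, but JEKO-1 CLF replicate 1 and JEKO-1 CON were almost equal. The difference was 0.96 ± 0.24 (unadjusted p = 0.00241). MSMO1, a demethylation enzyme of the same pathway, had 24.3 CPM in MINO-P CON and 37.9 in CLF, 38.3 and 93.3 in MINO-VR, 127 against 118 and 209 in JEKO-1, and 34.2 and 39.0 against 89.4 and 72.6 in Z138, a difference of 0.85 ± 0.19. Its JEKO-1 CLF libraries lay on both sides of CON. HMGCS1, at the entry of the pathway, differed by 0.87 ± 0.25, CYP51A1 by 0.84 ± 0.20 and SQLE by 0.68 ± 0.20. ABCG1, which exports sterol, was on the lower side: 51.1 CPM in MINO-P CON and 24.9 in CLF, 81.2 and 32.1 in MINO-VR, 63.1 against 73.6 and 23.9 in JEKO-1, and 15.7 and 14.3 against 3.66 and 2.96 in Z138. Its difference was -1.29 ± 0.30, with JEKO-1 CLF replicate 1 above CON.

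Lysosomal genes were described with a list of 51 measured genes that was also chosen after the values were seen. A positive difference in all 4 lines was found for 31 of them and a negative one for 1 (UVRAG), 14 had non-overlapping libraries on the higher side, and the median was 0.29. Over all genes tested, 8.67% had a positive difference in all 4 lines, 1.73% had non-overlapping libraries on the higher side and the median was -0.02. Without JEKO-1 CLF replicate 2, 22 genes had a positive sign in all 4 lines and the median was 0.22. By CLF library the list median ranged from 0.05 in JEKO-1 CLF replicate 1 to 0.64 in JEKO-1 CLF replicate 2. PSAP (chr10:71816298-71851252), the precursor of the saposins that help lysosomal enzymes break down sphingolipids, was at 743 CPM in MINO-P CON and 1060 in CLF, 914 and 1900 in MINO-VR, 985 against 1140 and 2140 in JEKO-1, and 1240 and 767 against 1570 and 1730 in Z138. It was higher in every CLF library, by 0.74 ± 0.21 (unadjusted p = 0.00459). The acid ceramidase gene ASAH1 differed by 0.75 ± 0.19, the cystine exporter CTNS by 0.61 ± 0.18 and the protease gene CTSD by 1.02 ± 0.39. SQSTM1 (chr5:179806398-179838079), which encodes the autophagy receptor p62, had 205 CPM in MINO-P CON and 306 in CLF, 272 and 519 in MINO-VR, 193 against 204 and 812 in JEKO-1, and 170 and 178 against 240 and 418 in Z138. Its difference was 0.87 ± 0.31 and its libraries were apart in each line. GABARAPL1, an ATG8-family autophagy gene, differed by 1.14 ± 0.35 from low levels of 0.299 to 9.25 CPM in CON (0.65 at a pseudocount of 5 in place of 1).

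The motif TCACGTGA is shown for the 2 lysosomal genes with non-overlapping libraries and a match upstream of the RefSeq start. ATP6V0D1 is a subunit of the proton pump that acidifies lysosomes, and LAMP1 is a major lysosomal membrane protein. Capitals mark the match in RefSeq sequence on GRCh38.p14.
ATP6V0D1 (chr16:67481200-67481227, minus strand): ccccttatggTCACGTGAggcgcttgcg
LAMP1 (chr13:113297200-113297227, plus strand): acccgcgggaTCACGTGAcgcccgggcg
This palindrome was found in 6 of the 32 lysosomal genes in the promoter table and in 321 of 27305 genes overall (1.18%). ATP6V0D1 was at 76.5 CPM in MINO-P CON and 101 in CLF, 99.8 and 121 in MINO-VR, 223 against 231 and 305 in JEKO-1, and 57.4 and 46.0 against 81.1 and 76.5 in Z138. LAMP1 stood at 165 CPM in MINO-P CON and 198 in CLF, 200 and 253 in MINO-VR, 213 against 215 and 334 in JEKO-1, and 248 and 180 against 335 and 262 in Z138. Both had every CLF library above CON of its line, with differences of 0.42 ± 0.12 and 0.38 ± 0.15.

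The iron genes TFRC and FTH1 and several antioxidant genes were also on the higher side. TFRC (chr3:196012511-196082154), the transferrin receptor that brings iron into the cell, was at 431 CPM in MINO-P CON and 565 in CLF, 273 and 609 in MINO-VR, 416 against 440 and 675 in JEKO-1, and 248 and 251 against 1020 and 836 in Z138. Each CLF library was above CON, and the Z138 difference of 1.89 was the largest of the 4 lines. The common difference was 1.09 ± 0.25 (unadjusted p = 0.0014). FTH1, the ferritin heavy chain that stores iron, was at 974 CPM in MINO-P CON and 1490 in CLF, 2120 and 3500 in MINO-VR, 1050 against 1070 and 2210 in JEKO-1, and 975 and 643 against 1220 and 1200 in Z138. It differed by 0.62 ± 0.21; FTH1 has many near-identical pseudogenes, among which counting could split reads. Of 13 measured genes of iron uptake and storage, a list chosen after the values were seen, 6 had a positive sign in all 4 lines and 0 a negative one. Non-overlapping libraries were found for 2 of the 13, and the list median was 0.19, against -0.02 over all genes. Of 16 targets of NRF2, the factor that answers oxidative and electrophilic stress, 9 were positive in all 4 lines, 0 negative and 4 non-overlapping, among them NQO1, OSGIN1 and FTH1, with a median of 0.34. Beside these counts, 8.67% of all genes were positive in every line and 1.73% had non-overlapping libraries on the higher side. Without JEKO-1 CLF replicate 2, 6 of the 16 were positive in all lines and the median was 0.26. NQO1, a quinone reductase, had 6.99 CPM in MINO-P CON and 9.77 in CLF, 6.98 and 8.79 in MINO-VR, 7.33 against 8.49 and 35.8 in JEKO-1, and 8.80 and 3.47 against 11.6 and 19.6 in Z138. Its difference was 0.91 ± 0.37. Of 22 genes of the ATF4 amino acid response, 8 were positive in all 4 lines and 0 negative; by library the list median was 1.35 in JEKO-1 CLF replicate 2 and between -0.01 and 0.40 in the other CLF libraries.

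Other genes of the higher group had varied roles. QPRT (chr16:29663279-29698700), which makes NAD from a tryptophan product, was at 29.6 CPM in MINO-P CON and 55.4 in CLF, 33.1 and 71.5 in MINO-VR, 41.9 against 54.6 and 103 in JEKO-1, and 34.0 and 33.5 against 50.5 and 45.9 in Z138. Its libraries were well apart in every line, JEKO-1 CLF replicate 1 included, and its difference was 0.76 ± 0.17 (unadjusted p = 0.0011). The deposited span of QPRT overlaps the more abundant SPN, so its reads are uncertain. ARMCX3, an outer mitochondrial membrane protein, differed by 0.61 ± 0.13, and the cation channel TRPM8 by 1.03 ± 0.35 (0.67 at a pseudocount of 5). The uridine phosphorylase gene UPP1 differed by 0.99 ± 0.36, a size that moved to 1.82 at a pseudocount of 0.1 and 0.55 at 5. In Z138 it had 0 CPM in both CON libraries and 0.183 and 1.24 in CLF, and the 0.183 CPM, worth about 3 reads, is not distinguishable from 0 at this depth. BEST1, a chloride channel gene that held without JEKO-1 CLF replicate 2, was at 6.49 CPM in MINO-P CON and 9.69 in CLF, 16.3 and 24.0 in MINO-VR, 6.44 against 9.89 and 12.7 in JEKO-1, and 8.87 and 5.42 against 14.9 and 14 in Z138. BEST1 overlaps FTH1, which had a mean of 1500 CPM against 11.7 and was itself higher with CLF, so their reads cannot be told apart and the BEST1 values are uncertain. UNC5B, a netrin receptor gene with the largest difference of the 22 higher genes (1.68 ± 0.64), did overlap in Z138, with 131 and 9.09 CPM in CON and 120 and 100 in CLF.

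On the lower side, mitosis genes were lower by their median in all 4 lines, most in the MINO lines, which also differ from the others in name series. Of 22 measured genes, 16 had a negative difference in every line, 0 a positive one, 12 had an unadjusted p under 0.05 and 3 had non-overlapping libraries (BIRC5, AURKB and TOP2A). The lower-side shares of all genes were 10.8% for sign, 1.83% for unadjusted p and 1.2% for non-overlapping libraries. The list median was -0.36, with -0.74 in MINO-P, -0.80 in MINO-VR, -0.15 in JEKO-1 and -0.11 in Z138. Without JEKO-1 CLF replicate 2, 12 of the 22 genes were negative in every line and the median was -0.37. TOP2A, the topoisomerase that untangles chromosomes before division, was at 529 CPM in MINO-P CON and 259 in CLF, 355 and 203 in MINO-VR, 373 against 348 and 275 in JEKO-1, and 588 and 556 against 512 and 498 in Z138. It was lower in each CLF library, by -0.48 ± 0.15 (unadjusted p = 0.00986). BIRC5, the survivin gene named in the study's title, had 121 CPM in MINO-P CON and 77.8 in CLF, 64.1 and 38.5 in MINO-VR, 250 against 247 and 161 in JEKO-1, and 158 and 189 against 139 and 144 in Z138. Its difference was -0.44 ± 0.14 (unadjusted p = 0.00882), and JEKO-1 CLF replicate 1 was almost level with CON. The kinase gene AURKB differed by -0.48 ± 0.15. Replication genes did not share this pattern by count: of 22, 2 were negative in all 4 lines and 0 positive.

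A few B-cell and cell-death genes were lower in every CLF library, while most genes of their lists had mixed signs. IRF8 (chr16:85899116-85922607), a transcription factor of the B-cell and myeloid lineages, was at 21.3 CPM in MINO-P CON and 6.19 in CLF, 15.3 and 6.28 in MINO-VR, 402 against 367 and 92.5 in JEKO-1, and 14.8 and 9.81 against 8.96 and 9.17 in Z138. The difference was -0.95 ± 0.33, small in JEKO-1 CLF replicate 1 and in Z138. SYK, the kinase next to the B-cell receptor, had 365 CPM in MINO-P CON and 265 in CLF, 383 and 293 in MINO-VR, 595 against 537 and 416 in JEKO-1, and 126 and 124 against 99.9 and 93.3 in Z138. It was lower in all 4 lines by a similar amount, -0.38 ± 0.10 (unadjusted p = 0.00379). Of 20 genes of B-cell receptor signalling 5 were negative in every line and 0 positive, and of 16 genes of B-cell identity 5 were negative and 1 (SOX11) positive, where 10.8% of all genes were negative and 8.67% positive in every line. HLA-DOB, which tunes antigen loading, and PLAC8 differed by -0.93 ± 0.35 and -0.99 ± 0.28 (HLA-DOB by -0.55 at a pseudocount of 5).

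FAS (chr10:88953813-89029606), a death receptor gene and p53 target, was at 22.9 CPM in MINO-P CON and 9.62 in CLF, 50.4 and 27.6 in MINO-VR, 1.86 against 0.748 and 0.920 in JEKO-1, and 4.91 and 6.02 against 2.38 and 4.62 in Z138. All CLF libraries were below CON, and in JEKO-1 both CLF libraries were alike; the difference was -0.75 ± 0.19 (unadjusted p = 0.00231; -0.49 at a pseudocount of 5). FAS overlaps ACTA2 and STAMBPL1, which have similar levels, so its reads are uncertain. Of 26 p53 targets, 7 were negative and 1 positive (GDF15) in all lines, and FAS, FDXR and BCL2L1 had non-overlapping libraries. Among all genes 10.8% were negative and 8.67% positive in every line, and 1.2% had non-overlapping libraries on the lower side. GDF15 was at 0.0531 CPM in JEKO-1 CON and 0.179 in Z138 CON replicate 2, within counting error of 0. Its Z138 libraries overlapped, with 5.68 CPM in CON replicate 1 and 3.24 in CLF replicate 2. BCL2L1, which encodes the survival protein BCL-XL, differed by -0.49 ± 0.17. Of 20 apoptosis regulators (BCL2 family members and inhibitors of apoptosis), 5 were negative in every line (BAK1, BIRC5, BCL2L1, BIK and BIRC3) and 2 positive (BCL2L2 and XIAP).

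GNAZ (chr22:23070519-23125033), a G-protein subunit gene, had one of the smallest unadjusted p-values of the fit (0.000956). It was at 31.0 CPM in MINO-P CON and 19.2 in CLF, 63.4 and 17.3 in MINO-VR, 10.4 against 7.98 and 5.06 in JEKO-1, and 71.1 and 72.3 against 37.6 and 47.8 in Z138. Each CLF library was below CON, with a difference of -0.90 ± 0.20. N4BP3 and BAIAP3 differed by -0.95 ± 0.20 and -0.98 ± 0.21 (BAIAP3 by -0.63 at a pseudocount of 5), and KREMEN2, a co-receptor in Wnt signalling, by -0.72 ± 0.15. The triglyceride synthesis gene DGAT2 differed by -0.86 ± 0.29, the LIM protein gene CRIP1 by -0.89 ± 0.28 and the potassium channel gene KCNN3 by -0.77 ± 0.21; in KCNN3 JEKO-1 CON and CLF replicate 1 both read 21.1 CPM. TXNIP, an inhibitor of thioredoxin and of glucose uptake, was at 183 CPM in MINO-P CON and 70.9 in CLF, 382 and 123 in MINO-VR, 32.2 against 37.2 and 10.5 in JEKO-1, and 277 and 232 against 121 and 89.7 in Z138. It was lower in 5 of the 6 CLF libraries, with a difference of -1.20 ± 0.28. Without JEKO-1 CLF replicate 1, TXNIP was the 1 gene that passed limma's adjusted test (-1.41 ± 0.13, adjusted p = 0.0188).

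**Figure D3:**
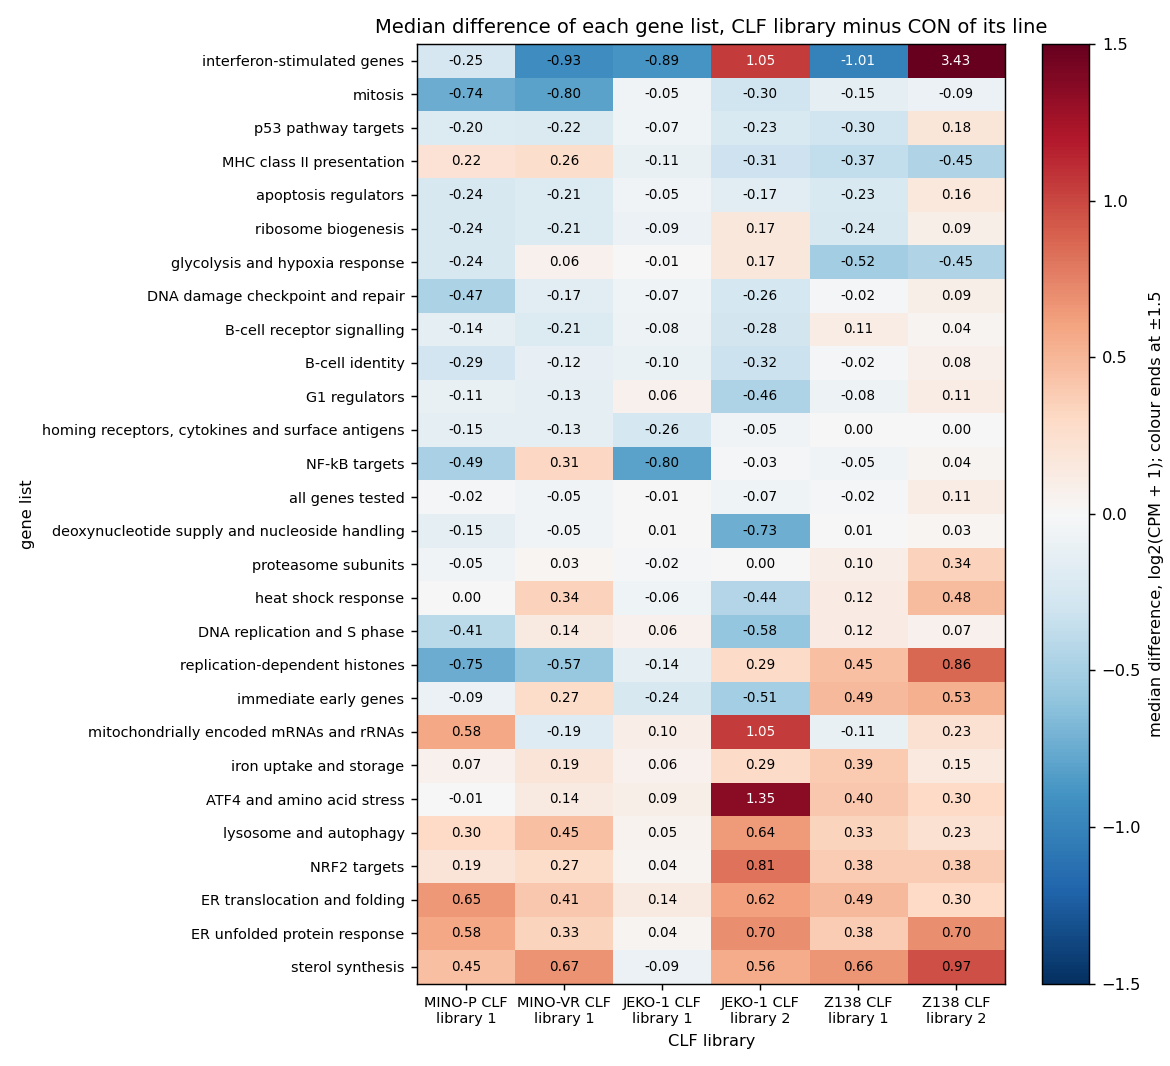
Median difference on the log2(CPM + 1) scale of each gene list (rows) in each of the 6 CLF libraries against the CON mean of its line (columns), blue for lower and red for higher. The ER lists are positive in all 6 libraries (0.04 to 0.70 for the unfolded protein response), mitosis is negative in all 6 (-0.80 to -0.05), and interferon-stimulated genes run from -1.01 to 3.43.

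Interferon-stimulated genes had the widest spread between CLF libraries of any list. The median of 25 measured genes was -0.25 in MINO-P, -0.93 in MINO-VR, -0.89 and 1.05 in the 2 JEKO-1 CLF libraries, and -1.01 and 3.43 in those of Z138, and 0 genes had 1 sign in all 4 lines. ISG15, a ubiquitin-like modifier induced by interferon, was at 29.9 CPM in MINO-P CON and 26.9 in CLF, 1200 and 494 in MINO-VR, 164 against 86.5 and 239 in JEKO-1, and 17.1 and 49.8 against 11.6 and 351 in Z138. MX1, an antiviral GTPase, was at 285 CPM in MINO-P CON and 209 in CLF, 3060 and 1380 in MINO-VR, 522 against 249 and 1000 in JEKO-1, and 54.5 and 272 against 33.4 and 515 in Z138. Both were lower than CON in MINO-P, MINO-VR and the first CLF library of JEKO-1 and Z138, and higher in the second CLF library of those lines. In Z138 the high CLF library has the name ending of CON replicate 2, the higher of the Z138 CON libraries for both genes.

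**Figure D4:**
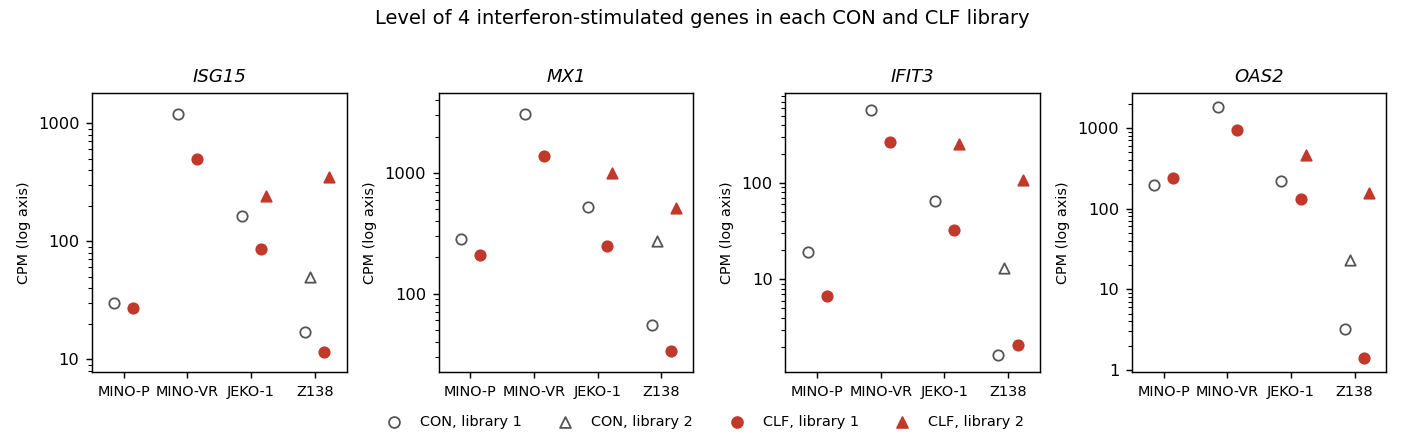
CPM on a log axis of ISG15, MX1, IFIT3 and OAS2 in each library, with open symbols for CON, filled symbols for CLF, circles for the first and triangles for the second library of a group. In JEKO-1 and Z138 the second CLF library lies above every CON library of its line, at 239 and 351 CPM for ISG15, and the first CLF library lies far below the second.

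The genes in the title and those defining the lymphoma were read in the same libraries. MCL1, an antiapoptotic BCL2-family gene, was at 279 CPM in MINO-P CON and 215 in CLF, 458 and 341 in MINO-VR, 494 against 456 and 363 in JEKO-1, and 344 and 325 against 349 and 462 in Z138. It was lower with CLF in 3 lines and higher in Z138, for a common difference of -0.12 ± 0.15. In Z138, CLF replicate 1 was almost level with CON replicate 1. CCND1 differed by -0.13 ± 0.20 and SOX11 by 0.19 ± 0.16. The 5 genes with the smallest interaction p-values were all weakly expressed (means of 1.07 to 2.83 CPM) and had an adjusted interaction p of 1. They were BCL2L14, at 11.8 CPM in MINO-VR CON and 2.88 in CLF, CD4, at 4.49 and 4.13 CPM in Z138 CON against 0.732 and 0.758 in CLF, HYI, at 4.25 CPM in MINO-P CON and 12.8 in CLF and at 2.98 and 10.5 in MINO-VR, and CEROX1 and FUT7.

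The same agent was also given on top of IBR, another agent of the series that the labels do not spell out, in all 4 lines, as 8 IBR_CLF libraries against 11 IBR libraries, none of which is among the 11 above. IBR replicate 3 of MINO-P, MINO-VR and JEKO-1 has a late library number, near that of JEKO-1 CLF replicate 2. No IBR_CLF library has such a number, so treatment and library number are partly confounded in this comparison and cannot be fully told apart. That fit called 0 of 15294 genes on the deposited values, and 3 of 15752 (MXD4, QPRT and SLC12A7) after mitochondrial genes were left out of the totals (limma; 2326 and 2409 genes at an unadjusted p under 0.05). Leaving them out, a scaling added after seeing the data, moved the median of all genes from -0.156 to 0.003, so values are given on both scales. Of the 220 genes with non-overlapping libraries and a mean of at least 5 CPM that were higher with CLF alone, 69 (31.4%) were also higher in IBR_CLF than in IBR on the deposited values, against 29.4% of all genes. Without mitochondrial genes these were 114 (51.8%) against 49.2%. Of the 145 that were lower with CLF alone, 98 (67.6%) were lower in IBR_CLF on the deposited values, against 70.6% of all genes. Without mitochondrial genes these were 64 (44.1%) against 50.8%. The shares lie near those of all genes on both scales.

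List medians are given next for IBR_CLF against IBR, first on the deposited values, where all genes had a median of -0.17, and then without mitochondrial genes, where it was -0.01. The unfolded protein response list had 0.24 and 0.46, beside 0.47 for CLF alone. The ER translocation and folding list had 0.18 and 0.39, beside 0.47. Sterol synthesis had -0.58 and -0.39, beside 0.57 for CLF alone, and NRF2 targets had -0.46 and -0.25, beside 0.34. Lysosome and autophagy had -0.31 and -0.11, beside 0.29. Mitosis had -0.02 and 0.19, beside -0.36, so its sign depends on the scaling. HSPA5 differed by 0.23 and 0.45 (adjusted p = 0.336 for the second, limma). QPRT was lower in IBR_CLF by -1.47 on the deposited values (adjusted p = 0.122, limma) and by -1.27 without mitochondrial genes (adjusted p = 0.0192, limma), and higher by 0.76 with CLF alone. PSAP differed by -0.91 and -0.69 and DHCR7 by -0.63 and -0.43 in IBR_CLF (adjusted p = 0.168 and 0.588 on the second scale, limma). The difference between the 2 settings was not tested. In MINO-P and MINO-VR the IBR and IBR_CLF library names begin with MCL, and the CON and CLF names with HK.

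**Figure D5:**
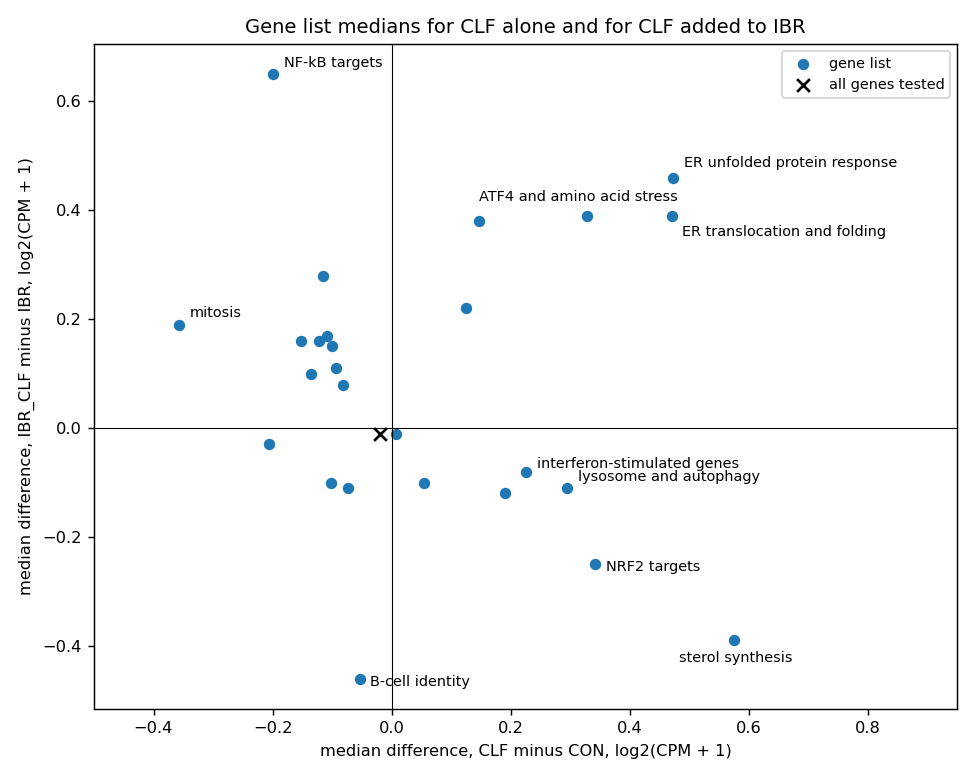
Each point is a gene list, with its median log2(CPM + 1) difference for CLF against CON on the x axis and for IBR_CLF against IBR (mitochondrial genes left out) on the y axis, and a cross for all genes tested. The ER lists lie at the upper right (0.47 and 0.46 for the unfolded protein response), and sterol synthesis lies at the lower right (0.57 and -0.39). On the deposited values the y values of these lists are 0.24 and -0.58.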

How the data were processed

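The deposited table held 21596 genes and values that the authors gave as log2 of CPM plus 1: undone, each library had the same total CPM, and no further scaling was visible. Per the submitters' processing notes, Partek and hg38 were used; the counter, annotation and strand setting are not given in the sources used here, so reads of overlapping genes cannot be told apart. This touches LY86-AS1 and MIR22HG and, by the deposited coordinates, BEST1 (FTH1), FICD (SART3), QPRT (SPN), PLAC8 (COPS4), BAIAP3 (TSR3), CCDC141 (TTN), BCL2L14 (LRP6), CEROX1 (LMF1, SOX8) and FAS (ACTA2, STAMBPL1), each overlapping a gene at least as abundant. Depth was recovered from the steps between low values, of which 77.7% to 81.4% were whole reads (within 0.02), so no count model was fitted. Genes with at least 1 CPM in 2 of the 11 libraries were tested with limma 3.58.1 (R 4.3.3, intensity trend, Benjamini-Hochberg), cell line as block, and the procedure was tested on simulated data. Differences on the log2(CPM + 1) scale come out too small for genes with low values. A nameless entry (0.00039% of a library or less) stayed out of all tests. The 11 libraries, gene lists and named-gene rule were chosen with earlier results of these data known. Named genes were up to 12 each way with CLF and CON libraries apart in all 4 lines and a mean of at least 5 CPM, ranked by their smallest line difference, the 5 smallest unadjusted p each way, the 5 smallest interaction p, list members with libraries apart, and BIRC5, MCL1, CCND1 and SOX11. Other genes were named after their values were seen, and some list members are not reported here. Z138 libraries with the same name ending deviated together (r = 0.62 over 10930 genes). Promoters and their coordinates are from RefSeq (GRCh38.p14); gene coordinates are those deposited.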

Additional observations from a re-analysis of the deposited data

Results flagged for a closer look

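MCL1 moved in opposite directions in JEKO-1 and Z138. Both JEKO-1 CLF libraries were below CON and both Z138 CLF libraries above both CON libraries, so that the Z138 difference exceeded that of JEKO-1 by 0.54 on the log2(CPM + 1) scale. In Z138, CLF replicate 1 exceeded CON replicate 1 by only 0.02, and CLF replicate 2 exceeded CON replicate 2 by 0.51. JEKO-1 CLF replicate 1 differed from CON by -0.12 and CLF replicate 2 by -0.44. This difference between 2 lines was not tested on its own; the test over all 4 lines gave an unadjusted p of 0.344 (limma).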

How the results depend on the processing

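The count of 0 calls for CLF against CON became 6 (TXNIP, NEU1, UNC5B, ATP6V0A1, CRIP1 and SQSTM1; smallest adjusted p = 0.0339, limma) when libraries of a group were averaged first, and ranged from 0 to 1 when single libraries were left out, the 1 being TXNIP without JEKO-1 CLF replicate 1. With name ending as a replicate block beside the line it was 0, with 913 genes at an unadjusted p under 0.05. With 5 pairs of a CON and a CLF library as blocks and JEKO-1 CLF replicate 2 left out, added after seeing the data, it was 0 with 1215 (smallest adjusted p = 0.469). Without the filter on low values, 80 genes were called for the difference between lines, 179 in MINO-P, 96 in MINO-VR and 1 in JEKO-1; the spread there was borrowed from the JEKO-1 and Z138 groups with 2 libraries. Genes past 0.5 in all 4 lines numbered 41 higher and 41 lower at a pseudocount of 0.1, and 10 and 5 at a pseudocount of 5. At a threshold of 0.25 they numbered 180 and 101, and at 1 they numbered 2 and 0. Leaving out single libraries gave 3 to 41 higher and 5 to 20 lower, fewest without JEKO-1 CLF replicate 2. The 41 higher came without JEKO-1 CLF replicate 1, and there were 37 without Z138 CON replicate 1 and 11 without Z138 CON replicate 2. Without single libraries the mitochondrial difference ranged from 0.25 to 0.81 points. The 3 calls for CLF added to IBR, against 0, came with mitochondrial genes left out, an alternative added after seeing the data. Beside those given in the report, the weakly expressed CCDC141, BCL2L14, CD4, CEROX1, FUT7 and HYI moved by over 1.5 times with the pseudocount. Of 1611 alternative values of the 60 named genes, 2 reversed: CD4 to 0.11 without Z138 and CCND1 to 0.04 with array weights. Values at or under 0.141 to 0.207 CPM, the worth of 3 reads, are within counting error of 0.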
